A study of Mus musculus with 6 samples.

Results

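The 10 genes described here are transcription regulators that act in late meiotic and haploid male germ cells: Crem, Fhl5, Rfx2, Sox30, Tbpl1, Tcfl5, Ovol1, Ovol2, Taf7l and Spz1. They were chosen by symbol, and all 10 were found among the 53700 genes of the count tables. Whole testes of mice at postnatal day 45 were compared in 6 RNA-seq libraries, 3 from mice of the genotype MSL3 WT (WT) and 3 from floxed conditional knockouts of the genotype MSL3 cKO (cKO). All 6 mice carry the strain label Msl3em1Forni/C57BL/6J. The recombinase driver and the cells in which it acts are not given in the sources used here, which limits what the cKO group can model. Msl3 is an X-linked subunit of the male-specific lethal complex, a histone acetyltransferase complex, and the series asks whether its loss alters spermatogenesis.

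Male germ cells switch to a dedicated set of transcription regulators as they leave meiosis. CREM, a bZIP factor that binds cAMP response elements, activates genes of sperm head and tail assembly together with FHL5 (also called ACT), a LIM-only coactivator. RFX2 drives genes of the growing flagellum, SOX30 is needed for round spermatids to develop, and the MYB factor encoded by Mybl1 and the bHLH factor TCFL5 act earlier, in spermatocytes. TBPL1 and TAF7L are relatives of the general factors TBP and TAF7. OVOL1 and OVOL2 are zinc finger repressors of meiotic germ cells and epithelia, and SPZ1 is a bHLH leucine zipper protein of the testis.

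The members lie on 9 chromosomes. In GRCm38, Taf7l (ENSMUSG00000009596, chrX:134460118-134476490) is the X-linked member. Fhl5 (ENSMUSG00000028259) is at chr4:25199908-25242876, Rfx2 (ENSMUSG00000024206) at chr17:56775897-56831013 and Sox30 (ENSMUSG00000040489) at chr11:45980310-46017994. Tbpl1 (ENSMUSG00000071359) is at chr10:22703879-22731938, Tcfl5 (ENSMUSG00000038932) at chr2:180621956-180642708 and Ovol2 (ENSMUSG00000037279) on the same chromosome at chr2:144305175-144332146. Ovol1 (ENSMUSG00000024922) is at chr19:5549136-5560646. Crem is ENSMUSG00000063889. Spz1 (ENSMUSG00000046957), a gene with a single exon, is at chr13:92574636-92576172. Of the 31-mers of their transcripts, at most 0.968% (Rfx2) also occurred in transcripts of another gene, so few reads could be shared with a copy. RefSeq start-site sequences (GRCm38.p6, 250 bases before to 50 bases after a start) were used for 8 of the 10 members. They gave 9 starts because Fhl5 has 2. Crem and Ovol1 were not among them, so the motif counts below do not cover these genes. The promoters of Fhl5 and Rfx2 are shown because these members had the lowest p-values, in opposite directions, and that of Tcfl5 because, like Rfx2, it holds 3 short MYB matches. Of the starts of Fhl5 the upstream start is shown, and the other (chr4:25242217-25242516) matched 0 of the 7 motifs searched below. All 3 are on the minus strand and are written 5′ to 3′ along the gene. Capitals mark ACAAT, the core bound by SOX factors, in Fhl5, GTTGCC, a part of the X-box bound by RFX factors, and AACGG, the MYB core, in Rfx2, and AACGG in Tcfl5, on either strand.
Fhl5, chr4:25242803-25243102: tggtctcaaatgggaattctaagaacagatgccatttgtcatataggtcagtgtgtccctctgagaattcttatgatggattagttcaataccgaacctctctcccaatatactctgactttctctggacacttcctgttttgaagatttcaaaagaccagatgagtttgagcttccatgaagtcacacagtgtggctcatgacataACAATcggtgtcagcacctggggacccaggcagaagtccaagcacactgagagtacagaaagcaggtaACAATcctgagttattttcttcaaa
Rfx2, chr17:56830959-56831258: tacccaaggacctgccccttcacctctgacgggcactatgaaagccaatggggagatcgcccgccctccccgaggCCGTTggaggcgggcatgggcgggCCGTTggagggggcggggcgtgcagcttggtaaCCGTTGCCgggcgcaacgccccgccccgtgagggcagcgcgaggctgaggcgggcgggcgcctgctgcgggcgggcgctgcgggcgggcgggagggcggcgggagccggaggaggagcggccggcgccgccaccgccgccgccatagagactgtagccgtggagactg
Tcfl5, chr2:180642642-180642941: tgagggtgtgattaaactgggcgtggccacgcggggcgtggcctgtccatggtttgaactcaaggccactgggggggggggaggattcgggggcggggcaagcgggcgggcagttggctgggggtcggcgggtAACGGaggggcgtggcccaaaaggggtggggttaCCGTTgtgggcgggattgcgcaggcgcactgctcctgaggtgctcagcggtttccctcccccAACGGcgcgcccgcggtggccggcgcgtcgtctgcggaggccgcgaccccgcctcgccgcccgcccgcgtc

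Letters of 7 motifs were searched on both strands of the 9 member promoters and of 32851 promoters of the same length. AACGG occurred in 4 of the 9 (Ovol2, Tcfl5, Sox30 and Rfx2), against 17.4% of all promoters. In Rfx2 its matches began at positions 76, 100 and 133, counted from 1 at the 5′ end, and that at 133 overlapped the GTTGCC at 135. In Tcfl5 they began at 134, 168 and 230. GTTGCC occurred in 2 of the 9 (Rfx2 and Spz1), against 12.5% of all, and ACAAT in 4 of the 9, against 31% of all. The full cAMP response element TGACGTCA was in 0 of the 9 and in 1.79% of all promoters. Its shorter form TGACG was in 1 (Rfx2), against 20.8% of all. CACGTG, the E-box, was in 1 (Taf7l), against 7.15%, and TATAAA in 1 (Taf7l), against 13.6%. These matches describe the letters only.

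Libraries held 56991431 to 73766444 assigned reads. Msl3 had 942, 1226 and 990 reads in WT replicates 1 to 3 and 1170, 829 and 923 in the cKO libraries, a log2 fold change of -0.12 (SE 0.0879, edgeR adjusted p = 0.551). No lowering of the count was detected, so groups are named by their labels. The deleted exons are not given in the sources used here. A count over the whole gene cannot show whether single exons are missing from its transcripts. Markers of the testis were present: none of the germ cell markers listed was at 0 in all libraries, whereas the 4 epididymal markers summed to at most 0.240 CPM (reads scaled to library size) in a library. Summed round spermatid markers were 1337 to 1520 CPM in WT and 1285 to 1297 CPM in cKO, without overlap. By gene, 7 of 8 were lower, 0 of 8 were called and 4 did not overlap, against 18.9% of all tested genes. Summed spermatocyte markers were 1586 to 1626 CPM in WT and 1642 to 1723 CPM in cKO, again without overlap, with 5 of 8 higher, 3 lower, a median log2 fold change of 0.04 and 0 of 8 called. Summed spermatogonial and elongating spermatid markers overlapped between the groups. Of the somatic lists, Sertoli, Leydig, peritubular myoid and macrophage sums overlapped between the groups. Sertoli markers, whose sum is mostly Clu, were nevertheless higher in cKO in 8 of 8 genes, with a median log2 fold change of 0.09. Of these genes 0 were called and 2 did not overlap, against the same 18.9% of all tested genes. The 5 endothelial markers summed to 39.8 to 40.9 CPM in WT and 41.9 to 50.9 CPM in cKO, without overlap, with 5 of 5 higher and 0 called. In whole testis, fewer cells of a type and less RNA per cell cannot be told apart, and the part of these markers in the values that follow was not tested.

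All 10 members were expressed and all passed the filter on low counts. Per kilobase of exon, Spz1 had by far the highest level, 1009 ± 59.5 CPM per kb (SD, n = 6 libraries), 4.41 times that of Fhl5. Fhl5 followed with 229 ± 27.6, Tcfl5 with 122 ± 5.74 and Tbpl1 with 104 ± 5.25 CPM per kb (SD, n = 6 each). Sox30 had 63.9 ± 4.06, Rfx2 45.1 ± 4.35 and Crem 35.9 ± 2.40 CPM per kb (SD, n = 6 each). Ovol2 had 32.0 ± 1.56, Taf7l 20.9 ± 1.74 and Ovol1 3.19 ± 0.214 CPM per kb (SD, n = 6 each). Neighbours in this order did not overlap in any library, except Crem and Ovol2, whose ranges of 33.3 to 40.0 and 30.4 to 34.2 CPM per kb did. Spz1 stood above 99.9% of the tested genes on this scale and Ovol1 above 55.1%, a span of 316 times between them. The order rests on the exons of all annotated transcripts, so a gene that uses a short testis isoform, as Crem is known to do, can have a level per kilobase that is too low.

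**Figure D1:**
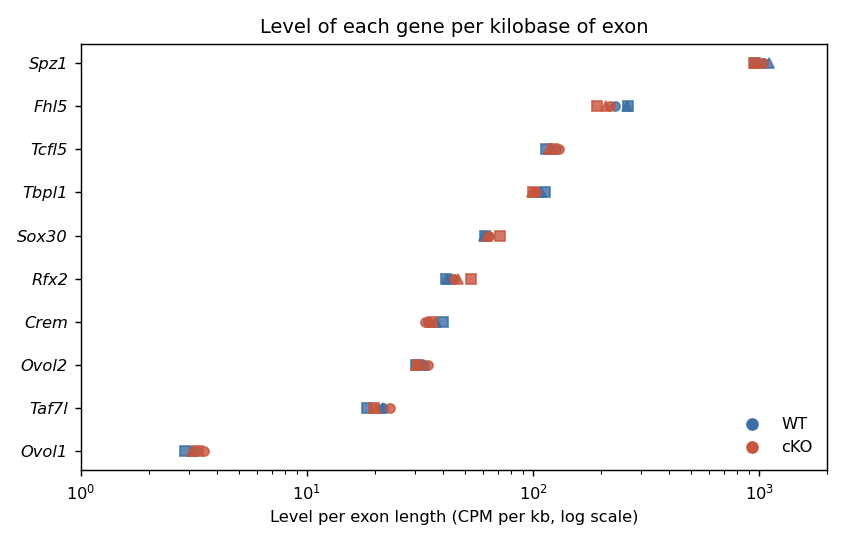
Level of each of the 10 regulators in CPM per kilobase of exon (log scale), with 1 point per library, blue for WT and red for cKO. Points of a gene lie close together compared with the distances between genes, from about 3.19 CPM per kb for Ovol1 to 1009 for Spz1.

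The comparison of cKO with WT asked whether any of these regulators changed with the Msl3 genotype. By the test over all genes, 0 of the 10 members passed an edgeR quasi-likelihood adjusted p of 0.05, as did 0.0183% of the 21902 genes tested. DESeq2 also called 0 of 10. Without adjustment 2 of 10, Fhl5 and Rfx2, were under 0.05 with edgeR, and the same number with DESeq2, against 13.9% of all tested genes with edgeR. Fitted log2 fold changes ran from -0.27 to 0.19, with 5 members higher, 5 lower and a median of 0.01, beside 0.00 over all tested genes. Groups did not overlap in 3 members (Fhl5, Rfx2 and Tbpl1), against 18.9% of all tested genes.

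**Figure D2:**
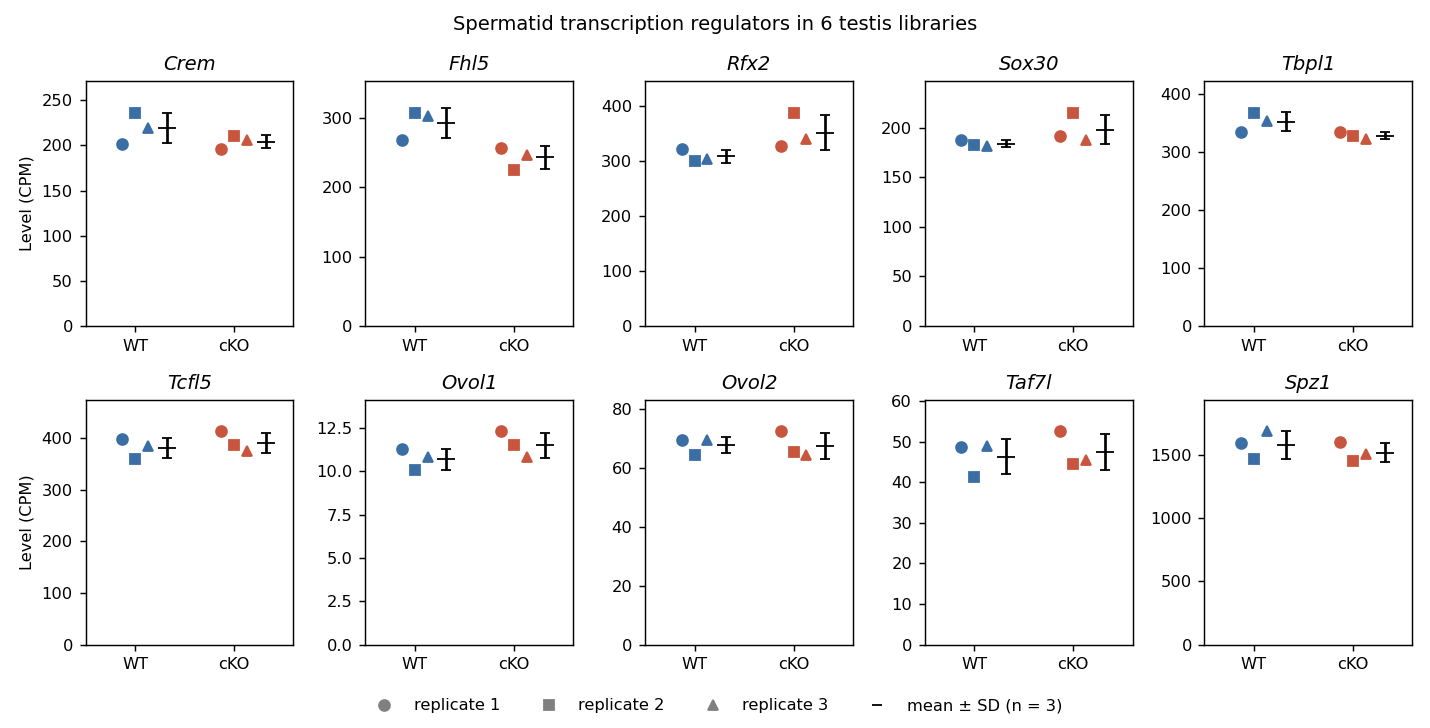
CPM of each regulator in the 3 WT (blue) and 3 cKO (red) libraries, with the symbol shape giving the replicate number and the bar the group mean with its SD. Each vertical axis starts at 0. Fhl5 separates with WT higher and Rfx2 with cKO higher, while the points of most other genes intermingle.

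Among the activators, the CREM coactivator Fhl5 had the lowest unadjusted p. Its level was 268, 307 and 303 CPM in WT replicates 1 to 3 and 257, 225 and 246 CPM in cKO replicates 1 to 3. Every cKO library lay below every WT library, the closest being cKO replicate 1 and WT replicate 1. Group means were 293 ± 21.8 and 243 ± 16.1 CPM (SD, n = 3 each), a log2 fold change of -0.27 (SE 0.0772, edgeR unadjusted p = 0.00438, adjusted p = 0.282). The 95% limits on the cKO level were 0.738 and 0.932 times that of WT. The call depended on the filter: with every gene that had any read in the fit, the edgeR adjusted p was 0.0251. Over the alternatives it ran from 0.0251 to 0.730, and the log2 fold change from -0.33 to -0.22. Round spermatid markers, given above, were also lower in cKO.

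Crem itself, the factor that FHL5 coactivates, had 202, 236 and 219 CPM in WT and 196, 210 and 206 CPM in cKO. These counts are by gene and do not separate its isoforms. The groups overlapped, since the 2 upper cKO libraries exceeded the lowest WT library. Its log2 fold change was -0.10 (SE 0.0724, edgeR adjusted p = 0.551), and the 95% limits were 0.835 and 1.04 times the WT level.

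Rfx2, the activator of flagellar genes, differed the other way. Its level was 321, 300 and 304 CPM in WT and 327, 387 and 340 CPM in cKO. The groups did not overlap, with WT replicate 1 close to cKO replicate 1 and cKO replicate 2 standing highest. Means were 308 ± 11.1 and 351 ± 31.9 CPM (SD, n = 3 each), a log2 fold change of 0.19 (SE 0.0757, edgeR unadjusted p = 0.0288, adjusted p = 0.315). Without cKO replicate 2 the log2 fold change was 0.11 (edgeR adjusted p = 0.608). This library was the highest of the 6 for 24.0% of all tested genes, WT replicate 2 for 23.1% and each other library for 11.2% to 17.5%. Spermatocyte markers, given above, were higher in cKO as a sum but split 5 to 3 by gene.

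Sox30, an HMG-box factor, had 188, 183 and 182 CPM in WT and 192, 215 and 188 CPM in cKO. As for Rfx2, cKO replicate 2 was the highest library, and the lowest cKO library lay among the WT values. The log2 fold change was 0.11 (SE 0.0700, edgeR adjusted p = 0.520), and without cKO replicate 2 it was 0.04.

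Tcfl5, the bHLH factor of spermatocytes, had 398, 360 and 384 CPM in WT and 413, 386 and 375 CPM in cKO. The groups were interleaved. The log2 fold change was 0.04 (SE 0.0687, edgeR adjusted p = 0.845), with 95% limits of 0.926 and 1.14 times the WT level. Spz1, the most abundant member, had 1595, 1468 and 1687 CPM in WT and 1600, 1450 and 1508 CPM in cKO, also interleaved. Its log2 fold change was -0.06 (SE 0.0720, edgeR adjusted p = 0.753).

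The relatives of general factors came next. Tbpl1, which replaces TBP at some promoters and is required for spermiogenesis, had 336, 368 and 354 CPM in WT and 336, 328 and 323 CPM in cKO. The groups separated only by less than the rounding of these values, between WT replicate 1 and cKO replicate 1. Its log2 fold change was -0.10 (SE 0.0644, edgeR adjusted p = 0.499). Taf7l, the X-linked relative of Taf7, had 48.6, 41.4 and 49.0 CPM in WT and 52.5, 44.6 and 45.4 CPM in cKO. The groups overlapped, and the log2 fold change was 0.04 (SE 0.0883, edgeR adjusted p = 0.895). It had the widest spread within groups of the 10, a coefficient of variation of 9.19%, where the median of 10051 genes with at least 10 CPM was 6.36%.

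**Figure D3:**
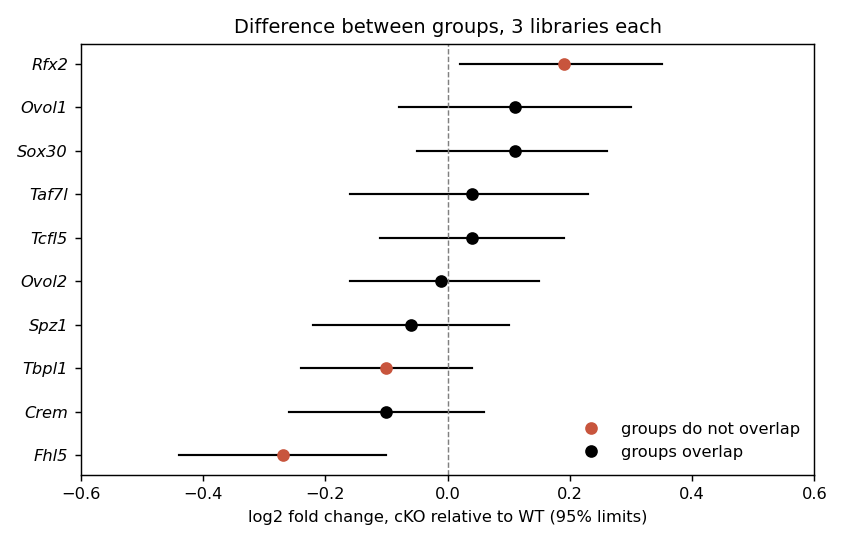
Fitted log2 fold change of each regulator, cKO relative to WT, with 95% limits. Red points are members whose groups do not overlap. The limits leave 0 outside for Fhl5 and Rfx2, neither of which passed the adjusted threshold.

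The repressors Ovol1 and Ovol2 were the members with abundant antisense reads, and Ovol1 had the lowest level of the 10. Ovol1 had 664, 654 and 672 reads in WT and 895, 646 and 632 in cKO, or 11.3, 10.1 and 10.8 CPM against 12.3, 11.5 and 10.8 CPM. The groups overlapped (log2 fold change 0.11, SE 0.0877, edgeR adjusted p = 0.612). Ovol2 had 69.4, 64.4 and 69.4 CPM in WT and 72.3, 65.5 and 64.2 CPM in cKO, with the highest and the lowest library both in cKO. Its log2 fold change was -0.01 (SE 0.0712, edgeR adjusted p = 0.972), with 95% limits of 0.893 and 1.11 times the WT level.

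Reads on the strand opposite to the transcript made up 70% to 79.8% of all stranded reads of Ovol1 and 40.3% to 42.4% of those of Ovol2. In the other 8 members this share was at most 1.3%, the highest being in Tcfl5. Ovol1 overlaps the transcribed pseudogene Gm31166 on the other strand over 690 exonic bases (19.8% of its exons), and Ovol2 overlaps the antisense gene 1700108N11Rik over 359 bases (17% of its exons). Antisense reads of Ovol1 numbered 1722, 1673 and 1591 in WT and 2089, 2552 and 2217 in cKO. Scaled to library size, they were 29.3, 25.8 and 25.6 CPM in WT and 28.6, 45.6 and 38.0 CPM in cKO, and the groups overlapped, since cKO replicate 1 lay below WT replicate 1. Reads in a shared stretch count both as antisense reads of the member and as reads of the gene on the other strand. The values of such a pair are thus not independent. Gm31166, named after its values were seen, had 69.1, 60.5 and 59.0 CPM in WT and 69.3, 105 and 85.5 CPM in cKO. Its means were 62.9 ± 5.42 and 86.5 ± 17.7 CPM (SD, n = 3 each), a log2 fold change of 0.46 (SE 0.124, edgeR unadjusted p = 0.00301, adjusted p = 0.276). 1700108N11Rik had a log2 fold change of -0.02 (SE 0.0740, edgeR adjusted p = 0.931). Counting without regard to strand set aside reads that fell in both genes, and gave Ovol1 519 to 700 reads.

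**Figure D4:**
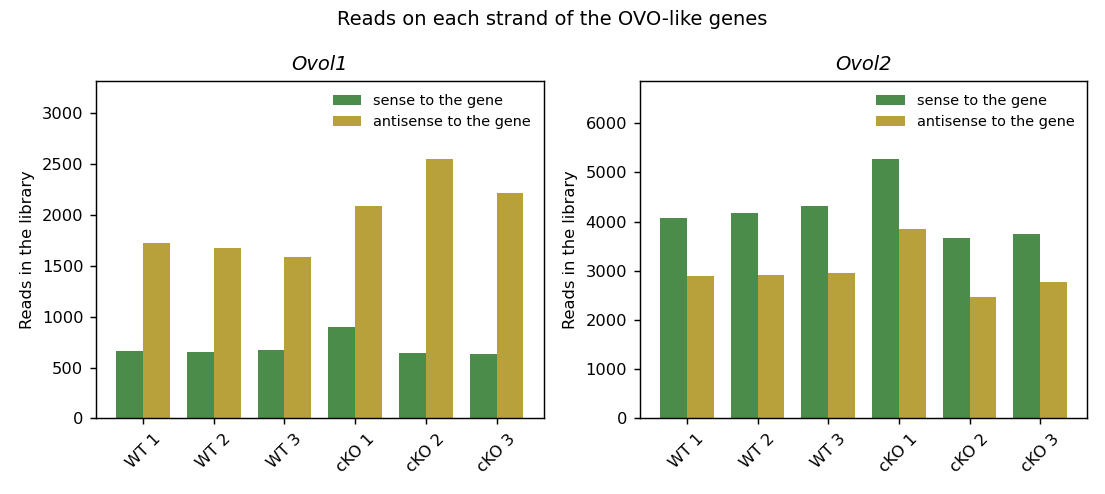
Reads per library on the transcript strand (green) and on the opposite strand (yellow) of Ovol1 and Ovol2, not scaled for depth. For Ovol1 the opposite strand is the taller bar in all 6 libraries, up to 2552 reads in cKO replicate 2, and for Ovol2 the transcript strand is taller in all 6.

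Each of 6 members was set against a related gene within the same library, as a ratio of reads per kilobase of exon that does not depend on scaling. Crem exceeded Creb1, the broadly expressed factor of the same family, by 27.8, 29.5 and 28.6 times in WT and 30.0, 24.9 and 25.4 times in cKO. Tbpl1 exceeded Tbp by 11.5, 12.1 and 11.8 times in WT and 11.8, 10.1 and 10.4 times in cKO. Crem was thus above Creb1, and Tbpl1 above Tbp, in each of the 6 libraries, with overlapping groups. The size of each ratio depends on the exon lengths, taken over all annotated transcripts. Not divided by length, WT means were 219 CPM for Crem and 17.8 CPM for Creb1. They were 353 CPM for Tbpl1 and 124 CPM for Tbp. Taf7l exceeded Taf7 by 2.59 to 3.16 times in WT and 2.88 to 3.30 times in cKO, and Rfx2 exceeded Rfx1 by 2.56 to 2.92 and 2.80 to 2.85 times. Fhl5, in contrast, was at 0.230 to 0.270 times Fhl4, another LIM-only gene expressed in the testis, in WT and 0.215 to 0.241 times in cKO.

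Ovol1 was at 0.0987, 0.0947 and 0.0943 times Ovol2 in WT and 0.103, 0.107 and 0.102 times in cKO, the single pair without overlap. The difference was 0.11 on the log2 scale (exact two-sided permutation p = 0.1, 0.400 after Benjamini-Hochberg adjustment over the 6 pairs), and 0.1 is the smallest p that 3 against 3 libraries allow. The other 5 pairs had exact permutation p from 0.200 to 0.700 and differences from -0.14 to 0.06 on the log2 scale.

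Partners and relatives of CREM and FHL5 were taken from a list of 12 genes, all tested, of which 0 were called, 9 were higher and 3 lower in cKO, with a median log2 fold change of 0.08. The summed level of the list, mostly Fhl4, was 4099 to 4305 CPM in WT and 3930 to 4024 CPM in cKO, without overlap. Fhl4 had 3540 ± 89.5 CPM in WT and 3240 ± 63.6 CPM in cKO (SD, n = 3 each). Its log2 fold change was -0.13 (SE 0.0605, edgeR adjusted p = 0.374). The CREB coactivator Crtc3 had 19.5, 16.1 and 17.8 CPM in WT and 20.7, 21.4 and 23.2 CPM in cKO (log2 fold change 0.29, SE 0.0880, edgeR adjusted p = 0.288), without overlap. The acetyltransferase Crebbp had 33.0, 38.2 and 34.6 CPM in WT and 35.2, 56.1 and 47.0 CPM in cKO, which overlapped (log2 fold change 0.38, edgeR adjusted p = 0.304). Kif17, the kinesin known to move FHL5 out of the nucleus, had a mean of 423 ± 19.9 CPM in WT and 453 ± 10.8 CPM in cKO (SD, n = 3 each; edgeR adjusted p = 0.518).

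Of 8 genes known to depend on CREM, 0 were called, 5 were higher and 3 lower, with a median of 0.01. Tnp1, Tnp2, Prm1, Prm2, Odf1 and Smcp of this list are also among the elongating spermatid markers above. The lists are therefore not independent. The transition protein gene Tnp1, needed for chromatin compaction in spermatids, had the most negative fold change, with 2125, 2695 and 2683 CPM in WT and 1836, 1685 and 2172 CPM in cKO. The groups overlapped between WT replicate 1 and cKO replicate 3 (log2 fold change -0.40, SE 0.108, edgeR adjusted p = 0.276). The protamine gene Prm1 had a log2 fold change of -0.20 (edgeR adjusted p = 0.392), with cKO replicate 2 lowest at 2546 CPM. Tnp2 was also lower, with a log2 fold change of -0.13 (edgeR adjusted p = 0.509). Prm2, Odf1, Smcp, Ace and Camk4 had log2 fold changes from 0.00 to 0.10.

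The 7 other RFX factors and Mybl1 gave 0 calls of 8, with 7 higher, 1 lower and a median of 0.09. Rfx7, a broadly expressed member, had 27.0, 28.4 and 26.6 CPM in WT and 27.7, 38.9 and 34.3 CPM in cKO, with overlap (log2 fold change 0.30, edgeR adjusted p = 0.305). Rfx1 had a log2 fold change of 0.14 (edgeR adjusted p = 0.419). Mybl1, the MYB factor of spermatocytes, was at 86.7 ± 0.615 CPM in WT and 91.9 ± 10.4 CPM in cKO (SD, n = 3 each; edgeR adjusted p = 0.684). Among 7 ciliary genes known as RFX targets, 0 were called, 5 were higher and 2 lower, with a median of 0.08. Ift172, of the intraflagellar transport machinery, had 439, 417 and 417 CPM in WT and 436, 528 and 479 CPM in cKO (log2 fold change 0.18, edgeR adjusted p = 0.335), and Ift122, of the same machinery, had a log2 fold change of 0.15 (edgeR adjusted p = 0.365).

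General transcription factors, the machinery that TBPL1 and TAF7L resemble, made up a list of 21 genes. Tbpl2, the oocyte relative of TBP, had 0 reads in all 6 libraries, and of the 20 tested 0 were called, 12 were higher and 8 lower, with a median of 0.04. Groups did not overlap in 7 of the 20, against 18.9% of all tested genes. The TFIID subunit gene Taf3 had 30.2, 28.3 and 28.0 CPM in WT and 33.1, 36.3 and 34.5 CPM in cKO (log2 fold change 0.26, SE 0.0711, edgeR adjusted p = 0.276). Taf4 had a log2 fold change of 0.24 (edgeR adjusted p = 0.300). Gtf2a1l, the germ cell form of a TFIIA subunit, stood at 313 ± 5.07 CPM in WT and 310 ± 8.11 CPM in cKO (SD, n = 3 each), with 95% limits on the cKO level of 0.902 and 1.09 times that of WT.

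Among 8 other regulators of late germ cells 7 were tested and 0 called, with 4 higher, 3 lower and a median of 0.10. The Y-linked zinc finger gene Zfy1 had a log2 fold change of -0.29 (edgeR adjusted p = 0.329) at 5.51 ± 0.504 CPM in WT, and the bromodomain gene Brdt one of 0.13 (edgeR adjusted p = 0.399) at 297 ± 7.60 CPM (SD, n = 3 each). Of the genes known to be repressed by OVOL1, Id2 had a log2 fold change of 0.07 (edgeR adjusted p = 0.839). Myc had 19, 73 and 47 reads in WT and 31, 17 and 30 in cKO, with overlap (log2 fold change -0.83, SE 0.377, edgeR adjusted p = 0.356).

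**Figure D5:**
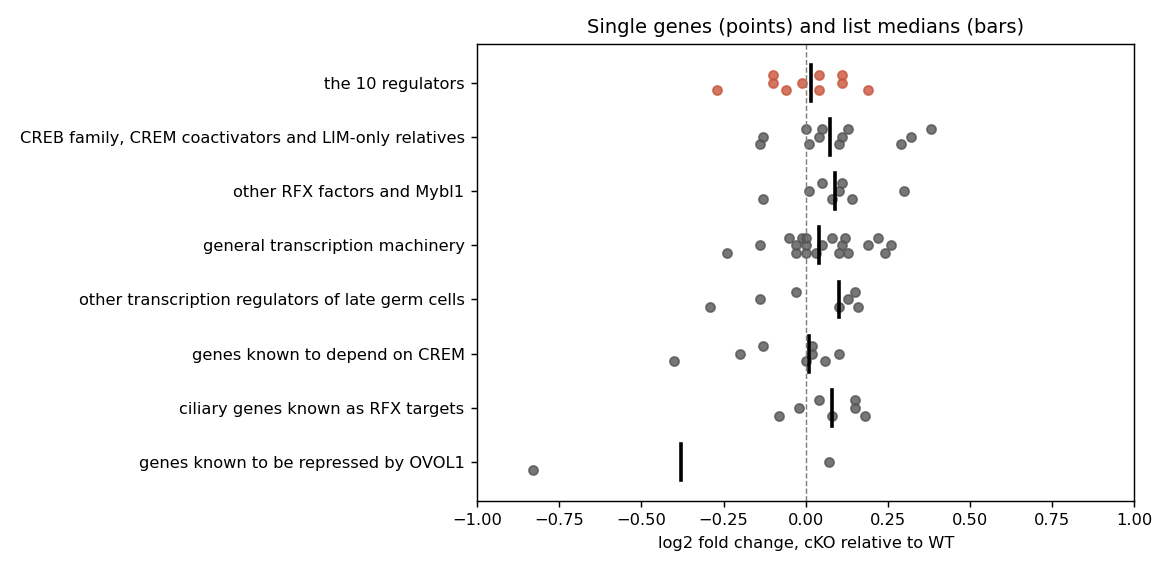
Fitted log2 fold changes of single genes (points), cKO relative to WT, for the 10 regulators (red) and the 7 lists of related genes (grey), with bars at the list medians. Each list has points on both sides of 0, in some lists mostly on the higher side. List medians lie between -0.38, for a list of 2 genes, and 0.10.

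By library, cKO replicate 3 had 1 of the 10 members above that member's mean over the 6 libraries and WT replicate 2 had 3, while WT replicates 1 and 3 and cKO replicate 1 had 6 each and cKO replicate 2 had 4. Fhl5 varied most of the 10 over the 6 libraries, from 225 to 307 CPM or 1.36 times. Of 10050 genes with at least 10 CPM, those whose centred log2 CPM lay closest to that of Fhl5 over the 6 libraries were AY702102, Prim1 and Ptpmt1, with root mean square differences of 0.0260, 0.0286 and 0.0309. Each of the 3 was lower in cKO, with log2 fold changes of -0.28, -0.24 and -0.25 and edgeR adjusted p of 0.278, 0.306 and 0.288. This closeness was found by search over all these genes and is a description of the 6 libraries. The lower level of the 3 genes in cKO follows from the search, since the Fhl5 profile holds the group difference.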

How the data were processed

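Counts were deposited as 1 table per library, in the layout of STAR gene counts. The submitters' processing notes name STAR, HTSeq, DESeq2 and the build mm10, without versions or roles, and single-end reads of 75 bp are given per the labels. The deposited counts are raw, for 53700 genes, unstranded and for each strand. The counts used came from the strand column with 96% to 96.2% of stranded reads, which is the transcript strand in the text above. Reads outside single genes (14.8% to 16.7%) were left out. Gene models came from GENCODE M21 (GRCm38, as mm10), and levels per kilobase used the union of exons.

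Groups were compared with edgeR 4.0.16 in R 4.3.3 (TMM, filterByExpr minimum count 10, quasi-likelihood F test, no covariates, Benjamini-Hochberg over 21902 genes, threshold 0.05). CPM use TMM-scaled library sizes. The procedure was also run on simulated counts, whose outcome is not given here. Alternatives were other scalings, filters and strand counts, a replicate block, robust dispersion, DESeq2 1.42.0 and each library left out. The named genes were all members, Msl3, ratio partners, the 2 lowest p-values per list and the 3 genes closest to the member with the lowest p-value and to that with the largest spread, which were the same member. Kif17, Gtf2a1l, Mybl1, Tbpl2, Tnp2, Prm2, Odf1, Smcp, Ace, Camk4, Clu, Gm31166 and 1700108N11Rik fall outside this rule. They were named after their values were seen. Members and lists were chosen with earlier results of these data known. The labels call the samples biological replicates.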

Additional observations from a re-analysis of the deposited data

How the results depend on the processing

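The number of members past the threshold was 0 in 13 of the 14 alternatives and 1 (Fhl5, edgeR adjusted p = 0.0251) without a filter on low counts. Over all genes the count was 4 with all 6 libraries, 757 without the filter, 2 with unstranded counts, 193 with DESeq2 and 1 to 628 when each library was left out, the highest without cKO replicate 1. The cause was not tested. The labels name no pairs, so the numbers were not taken as pairs in the main fit. Deviations of same-numbered libraries from their group means had correlations of 0.35, 0.26 and -0.05. A replicate block gave 49 genes and 0 members, and 4 of 6 libraries correlated best with their own number.

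The median log2 fold change of the members ran from -0.05 to 0.05 over the fits without a library. Without WT replicate 2 it was -0.04 and without cKO replicate 1 it was -0.05. In those fits Ovol2 ran from -0.06 to 0.03, Tcfl5 from -0.00 to 0.07, Taf7l from -0.04 to 0.08, the ratio of Rfx2 to Rfx1 from -0.00 to 0.09 and that of Taf7l to Taf7 from -0.02 to 0.12, each crossing 0. The other 7 members kept their direction in all 14 alternatives, scalings included. The least deeply covered member was Ovol1, with 632 to 895 reads in a library.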
